A study of Mus musculus with 8 samples.

Results

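The FGF-ERK feedback regulators followed here are 10 mouse genes taken by name: the ERK phosphatase genes Dusp4, Dusp5, Dusp6 and Dusp9, the Sprouty and Spred genes Spry2, Spry4 and Spred1, the ETS factor genes Etv4 and Etv5, and Phlda1. They were 10 of the 24921 gene symbols in the count tables, and 9 of them were among the 10311 genes with enough reads to test; Etv4 was not. None of the 9 passed the read filter through the libraries of 1 group alone. Their transcripts were read in 8 poly(A) RNA-seq libraries of mouse V6.5 embryonic stem (ES) cells, a C57BL/6 by 129 line, with 2 libraries in each of 4 groups. In the first group, cells that carry OCT4 as a fusion with FKBP, a tag for induced degradation (the OCT4-FKBP line), had received a dTAG compound, named dTag9 in the labels, for 24 h. The second group was the same line after 24 h in DMSO. The third group was the untagged V6.5 line (WT) 5 days after LIF had been withdrawn, and the fourth was WT with LIF. The labels do not say whether the tagged line is 1 clone, and no untagged cells received the compound. The comparisons ask how transcripts stood after loss of OCT4 and after withdrawal of LIF, the cytokine that keeps ES cells undifferentiated.

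In ES cells, FGF4 made by the cells themselves signals through FGF receptors, RAS, RAF and MEK to the kinase ERK, which drives cells out of naive pluripotency. ERK activity in turn raises transcripts of its own brakes, the dual-specificity phosphatases that remove phosphate from ERK and the Sprouty and Spred proteins that act upstream at RAS and RAF, and of ETS factors that carry out part of its program. The labels give 2i medium for all groups, a medium that holds inhibitors of MEK and of GSK3 and so lowers ERK output. They do not say whether the inhibitors were kept when LIF was withdrawn.

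The counted reads per library ranged from 7221451 to 11447468. Levels are given as CPM, read counts relative to a library size that edgeR's TMM scaling sets, with no correction for transcript length, so a level describes 1 gene across libraries and not 1 gene against another. Calls are edgeR quasi-likelihood calls at an adjusted p of 0.05 over all tested genes. A read that lies in sequence shared by several RefSeq accessions of a gene is not counted, nor is one shared between different genes. Reads of these ambiguous kinds, which were not separated, made up 42.2% to 43.0% of counted plus ambiguous reads in each library. Of the 10 genes, 7 had 1 accession, and their values are not touched by loss within the gene. Spred1 and Etv5 had 2 accessions and Etv4 had 3. Pou5f1, the gene of OCT4, was read at 84.6 and 90.2 CPM with dTAG, against 77.5 and 77.8 CPM in DMSO; the compound acts on the protein, so this transcript does not check the treatment. In WT cells it stood at 205 and 170 CPM without LIF, against 425 and 336 CPM with LIF. The DMSO level was 4.91-fold lower than in WT with LIF (edgeR adjusted p = 3.5e-16). Pou5f1 has 2 accessions, so its values cover only reads that tell them apart.

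The promoters of 3 genes are shown because these genes gave 3 kinds of response described below: Dusp6 was called higher without LIF and not called with dTAG, Dusp5 was called higher without LIF and lower with dTAG, and Spry2 was called lower in both comparisons. Each window runs from 250 bases before to 50 bases after the RefSeq start site on GRCm38.p6, 5′ to 3′ on the gene's strand, at chr10:99262981-99263280 (+) for Dusp6, chr19:53528895-53529194 (+) for Dusp5 and chr14:105896770-105897069 (-) for Spry2. Capitals mark matches to the CArG box, the site of serum response factor, of which only the Dusp5 window among these holds any.
Dusp6: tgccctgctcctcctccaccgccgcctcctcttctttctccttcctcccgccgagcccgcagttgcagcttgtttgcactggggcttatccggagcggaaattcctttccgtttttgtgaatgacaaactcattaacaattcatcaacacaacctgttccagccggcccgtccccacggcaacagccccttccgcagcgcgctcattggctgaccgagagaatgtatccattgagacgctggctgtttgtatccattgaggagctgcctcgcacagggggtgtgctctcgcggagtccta
Dusp5: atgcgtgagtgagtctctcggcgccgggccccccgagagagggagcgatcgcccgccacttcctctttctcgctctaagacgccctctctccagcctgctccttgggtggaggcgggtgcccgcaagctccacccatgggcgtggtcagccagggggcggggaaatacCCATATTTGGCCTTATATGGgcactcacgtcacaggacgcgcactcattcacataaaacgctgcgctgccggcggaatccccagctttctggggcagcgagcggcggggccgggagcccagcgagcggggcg
Spry2: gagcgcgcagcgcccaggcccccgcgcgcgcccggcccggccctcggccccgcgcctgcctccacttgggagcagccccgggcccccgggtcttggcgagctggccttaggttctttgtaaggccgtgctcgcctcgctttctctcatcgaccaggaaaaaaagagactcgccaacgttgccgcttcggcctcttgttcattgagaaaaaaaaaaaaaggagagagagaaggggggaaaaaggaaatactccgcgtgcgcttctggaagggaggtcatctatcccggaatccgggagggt

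The RefSeq promoter table held windows for 5 of the 10 genes, Dusp5, Dusp6, Spry2, Spred1 and Etv5, the last with 2 start sites, so 6 windows were searched on both strands. The ETS site in the strict form CCGGAAG, the AP-1 site TGANTCA, the STAT site TTCNNNGAA and the octamer ATTTGCAT matched none of the 6. Looser forms of the ETS site were not searched. Over all 32851 promoters in the table, these 4 motifs were held by 8.86%, 7.81%, 8.30% and 1.74% of windows. The CArG box, added to the search after the sequences had been read, matched 2 times in the Dusp5 window, 82 and 72 bases before the start site, and in no other of the 6; 1.63% of all promoters hold it. The matches describe letters in these windows and do not show where a factor binds.

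The first comparison asked how the feedback genes stood 24 h after OCT4 degradation in the OCT4-FKBP line. They did not move as one. Phlda1, Dusp9 and Spred1 rose, and Spry2, Spry4 and Dusp5 fell, while Dusp4, Dusp6 and Etv5 were not called. The 3 higher calls of 9 tested compare with 20.1% of all tested genes called higher, and the 3 lower calls with 20.3% called lower, and with 9 genes these counts are not read as a feature of the group. The median log2 fold change of the 9 was -0.58, against 0.00 over all tested genes.

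Phlda1, a gene of a pleckstrin-homology-like protein that ERK signaling is known to induce, had the largest response of the group to dTAG. It was read at 177 and 170 CPM in the dTAG libraries, against 7.30 and 6.25 CPM in the DMSO libraries. Both dTAG libraries lay far above both DMSO libraries, a 26.0-fold increase (log2 fold change 4.70, SE 0.11, edgeR adjusted p = 4.2e-22). Exons of Gm28592 overlap Phlda1 on the opposite strand in GENCODE M21, and because no source used here says whether strand was used in counting, reads of the pair cannot be told apart.

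Among the phosphatase genes, Dusp9 encodes an ERK phosphatase of the cytoplasm with a known role in placenta and in ES cells. It was read at 251 and 240 CPM with dTAG, against 80.0 and 76.8 CPM in DMSO. The groups did not overlap, and Dusp9 was 3.14-fold higher (log2 fold change 1.65, SE 0.07, edgeR adjusted p = 1.3e-16). Dusp6, the cytoplasmic ERK phosphatase widely used as a readout of FGF signaling, was read at 11.4 and 13.1 CPM with dTAG, against 11.1 and 12.1 CPM in DMSO. Its libraries overlapped, and the log2 fold change of 0.07 had a 95% interval of -0.22 to 0.35 (edgeR adjusted p = 0.74). A change of Dusp6 as large as its response to LIF withdrawal, given below, lies outside that interval.

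The nuclear phosphatase genes were read at low levels in the tagged line. Dusp5 had 9 reads over the dTAG libraries (0.55 and 0.44 CPM), against 26 reads over the DMSO libraries (1.83 and 1.14 CPM). The libraries did not overlap, and the log2 fold change was -1.49 (SE 0.54, edgeR adjusted p = 0.028). This call ended in DESeq2 (adjusted p = 0.051), without dTAG replicate 1 (edgeR adjusted p = 0.072), without dTAG replicate 2 (0.12) and without DMSO replicate 1 (0.15). Dusp5 also shares exon sequence with an opposite-strand gene, AC137853.2, in GENCODE M21. Dusp4 gave 1.20 and 1.66 CPM with dTAG, against 2.39 and 2.20 CPM in DMSO, from 26 and 42 reads. Its libraries did not overlap, but the log2 fold change of -0.66 had an interval of -1.34 to 0.01 and was not called (edgeR adjusted p = 0.12).

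The Sprouty genes were both lower. Spry2, whose product blocks signaling from receptor tyrosine kinases to RAS, was read at 91.3 and 87.2 CPM with dTAG, against 204 and 211 CPM in DMSO. Its groups were well apart, with a 2.33-fold decrease (log2 fold change -1.22, SE 0.06, edgeR adjusted p = 1.5e-14). Spry4, a second Sprouty inhibitor, was read at 2.30 and 3.77 CPM with dTAG, against 5.33 and 4.93 CPM in DMSO. Its 2 dTAG libraries differed more from each other than its DMSO libraries did, and the decrease was 1.68-fold (log2 fold change -0.75, SE 0.25, edgeR adjusted p = 0.017). The call of Spry4 was lost without dTAG replicate 1 (log2 fold change -0.44, adjusted p = 0.27) and without DMSO replicate 1 (adjusted p = 0.055). Spred1, which inhibits RAS by bringing neurofibromin to the membrane, went the other way by a small amount. It had 117 and 118 CPM with dTAG, against 97.3 and 88.3 CPM in DMSO, a 1.27-fold increase without overlap (log2 fold change 0.35, SE 0.07, edgeR adjusted p = 2.7e-04).

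The ETS factor genes gave little to read. Etv4 had 0 reads in all 8 libraries over its 3 accessions; a 0 allows up to 3 reads, or 0.26 to 0.42 CPM depending on the library, and covers only reads that tell the accessions apart. For Etv5, 68 reads were counted over all libraries, 13 with dTAG and 20 in DMSO. Its log2 fold change with dTAG was -0.58, with an interval from -1.79 to 0.63, and its libraries overlapped (edgeR adjusted p = 0.46). A change of Etv5 was thus not detected, and Etv4 could not be tested.

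Cell type markers were called in both directions with dTAG, where 20.1% of all tested genes were called higher and 20.3% lower. Sums over markers add reads without correction for transcript length. A gene's part in a sum is thus a part of the reads and not of the transcripts. The 13 trophoblast markers summed to 266 to 285 CPM with dTAG, against 70.8 to 73.7 CPM in DMSO. Of the 10 tested, 5 were higher and 2 lower, while Gata3 and Elf5 held 0 and 1 reads over all libraries. Cdx2 carried most of the trophoblast sum, averaging 180 CPM with dTAG, against 32.9 CPM in DMSO. The 2 lower were Tead4 and Tfap2a, each of several accessions. The 12 primitive endoderm markers summed to 501 to 555 CPM with dTAG, against 388 to 390 CPM in DMSO. Of 6 tested, 3 were higher and 1 lower, and Gata4 and Foxa2 were at 0 reads. Lamb1 averaged 407 CPM with dTAG, against 62.0 CPM in DMSO, while Lama1, the 1 lower, averaged 93.6 against 322 CPM. The 12 fibroblast markers stood at 22.7 to 23.6 CPM with dTAG, against 29.8 to 32.4 CPM in DMSO, with 1 of 6 tested higher and 2 lower, and the 11 ES cell markers at 1742 to 1760 CPM, against 3702 to 3705 CPM, with 1 of 10 higher and 8 lower. Each marker named at 0 or 1 read has several accessions, as has Nanog, an ES cell marker gene also at 0 reads, so these values cover only reads that tell accessions apart and do not show that the transcripts are absent. The part of these markers in the responses of the feedback genes was not tested. In bulk RNA, more cells of a type and more transcript per cell cannot be told apart.

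**Figure D1:**
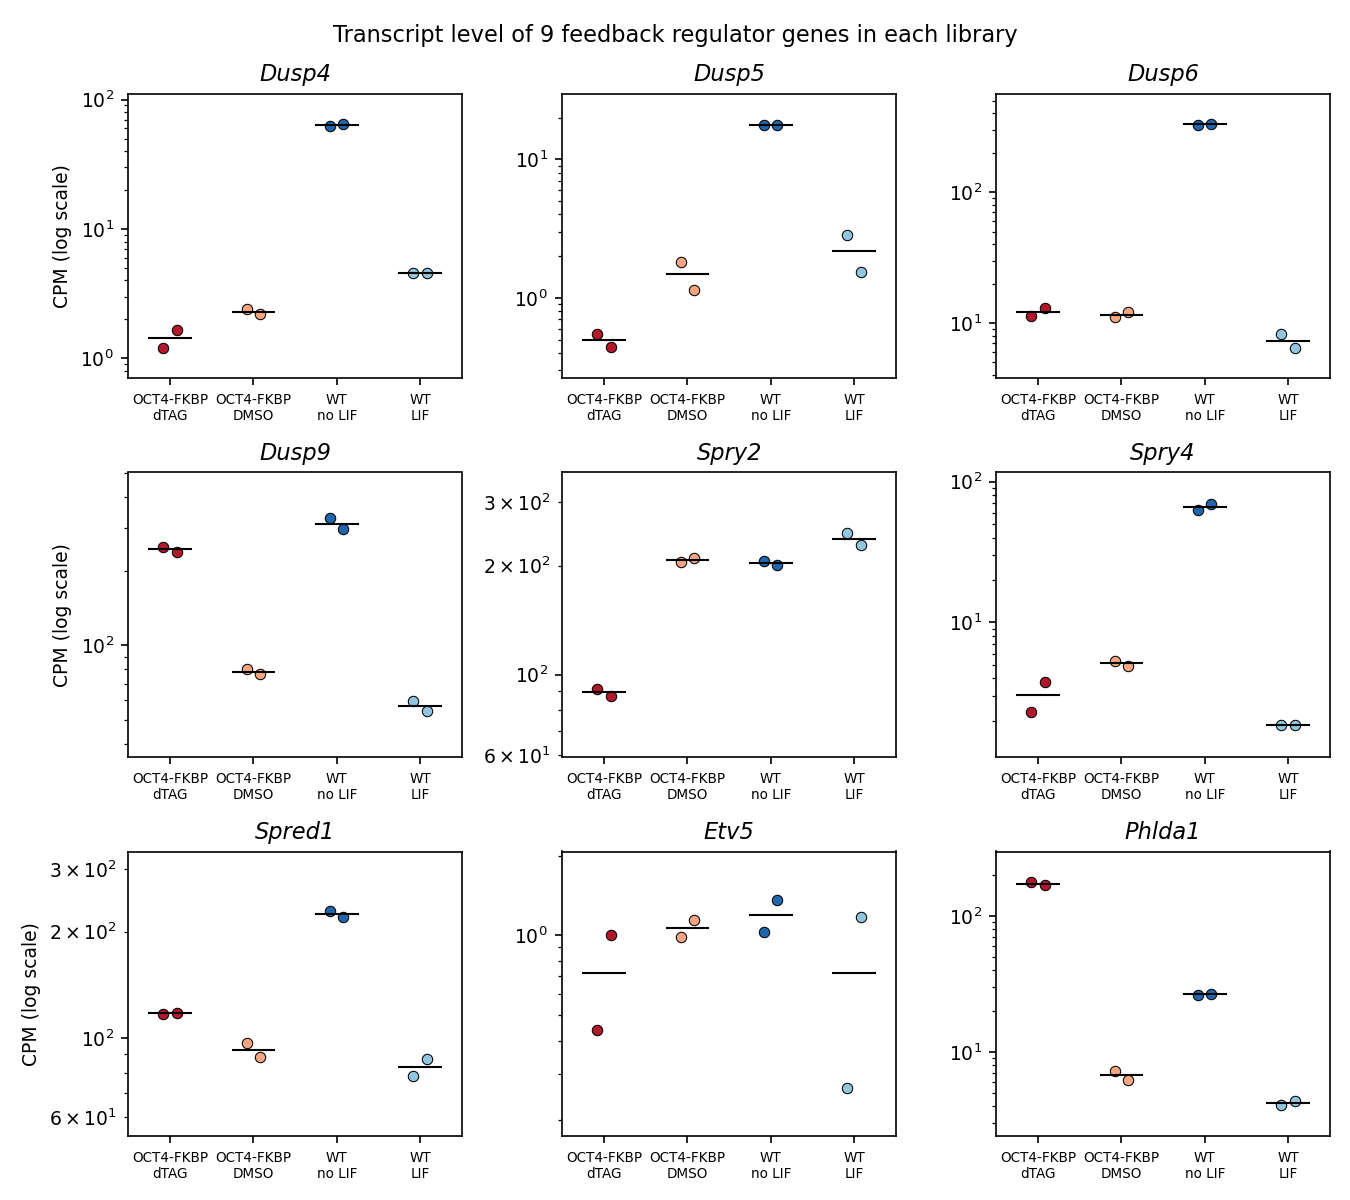
Level of each tested gene in every library, as CPM on a log axis that differs between panels; points are libraries and bars are group means, in the order OCT4-FKBP dTAG, OCT4-FKBP DMSO, WT no LIF and WT LIF. Dusp4, Dusp5, Dusp6 and Spry4 are highest in the 2 libraries without LIF, Phlda1 is highest with dTAG (177 and 170 CPM), and Spry2 is lowest with dTAG (91.3 and 87.2 CPM).

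The second comparison asked how the same genes stood after 5 days without LIF in WT cells. Here 7 of the 9 tested genes rose, each at least 2-fold, and Spry2 fell slightly. Of all tested genes, 34.0% were called higher and 34.4% lower in this comparison, so 7 of 9 was above the share of higher calls. The genes were chosen with earlier results of these data known, so this count is not read as a feature of the group. The median log2 fold change of the 9 genes was 2.66, against -0.02 over all tested genes.

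Dusp6 had the largest increase of the group. It was read at 327 and 333 CPM without LIF, against 8.21 and 6.47 CPM with LIF, or 6274 reads against 148. The groups were separated by far more than the replicates differed, and the increase was 44.2-fold (log2 fold change 5.47, SE 0.10, edgeR adjusted p = 5.1e-25). Dusp4, a nuclear phosphatase of ERK and other MAP kinases, stood at 63.0 and 65.2 CPM without LIF, against 4.59 and 4.59 CPM with LIF. That is 13.9-fold higher (edgeR adjusted p = 5.7e-19). Dusp5, a nuclear phosphatase specific for ERK, stood at 17.7 and 17.7 CPM, against 2.83 and 1.53 CPM with LIF, 7.79-fold higher (edgeR adjusted p = 8.3e-12). The LIF libraries of Dusp5 differed from each other by more than the libraries without LIF, from 32 and 13 reads. Dusp9 had 327 and 296 CPM without LIF, against 59.6 and 54.1 CPM with LIF, and its 5.47-fold increase was the smallest of the phosphatase genes (edgeR adjusted p = 7.8e-21).

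The Sprouty genes separated in this comparison. Spry4 was read at 62.6 and 69.1 CPM without LIF, against 1.85 and 1.88 CPM with LIF, 34.9-fold higher (log2 fold change 5.13, SE 0.17, edgeR adjusted p = 1.6e-19). Spry2 was read at 206 and 200 CPM without LIF, against 245 and 228 CPM with LIF. Its libraries did not overlap, and the decrease was 1.17-fold (log2 fold change -0.22, SE 0.06, edgeR adjusted p = 0.0016). Spry4 was thus read from 37 reads with LIF, against 4718 reads for Spry2. Spred1 had 228 and 220 CPM without LIF, against 78.2 and 87.6 CPM with LIF, 2.71-fold higher (edgeR adjusted p = 4.3e-16).

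Phlda1 rose less without LIF than with dTAG. It was read at 26.4 and 26.7 CPM without LIF, against 4.06 and 4.35 CPM with LIF, 6.32-fold higher (log2 fold change 2.66, SE 0.14, edgeR adjusted p = 5.2e-15). Etv5 had 1.02 and 1.36 CPM without LIF, against 0.26 and 1.18 CPM with LIF. The 2 LIF libraries held 3 and 10 reads, and the log2 fold change of 0.80 was not called (edgeR adjusted p = 0.22). It was -0.026 without WT LIF replicate 1 and 2.11 without WT LIF replicate 2, which passed (adjusted p = 0.027), so the value rests on single libraries.

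Most called markers of other lineages were higher without LIF, where 34.0% of all tested genes were called higher and 34.4% lower. The trophoblast markers summed to 1405 to 1511 CPM without LIF, against 34.58 to 36.02 CPM with LIF, with 7 of 10 tested higher and 3 lower. The keratin genes Krt18 and Krt8 carried most of that sum, averaging 851 and 499 CPM, against 7.84 and 10.1 CPM with LIF. Cdx2 averaged 2.12 CPM without LIF. The 3 lower were Tfap2a, Tfap2c and Tead4, each of several accessions. Primitive endoderm markers summed to 777 to 877 CPM, against 371 to 427 CPM with LIF, with 4 of 6 higher and 2 lower. Lamb1 averaged 560 CPM without LIF, against 73.4 CPM with LIF, while Lama1, among the 2 lower, averaged 56.6 against 315 CPM. Fibroblast markers summed to 59.1 to 60.4 CPM, against 22.0 to 24.5 CPM with LIF, with 5 of 6 higher and 0 lower, and with Dcn and Postn, of several accessions each, at 0 reads. ES cell markers summed to 5160 to 5220 CPM, against 4412 to 4438 CPM with LIF, with 4 of 10 higher and 4 lower. Lin28a, a gene of an RNA-binding protein, averaged 1828 CPM without LIF, against 84.6 CPM with LIF, a gap larger than that of the sum, while Zfp42 and Dppa5a were 6.88-fold and 4.30-fold lower. Of these higher calls, 2 trophoblast, 1 primitive endoderm and 1 fibroblast marker had passed the read filter only through the no LIF libraries. Among the lower calls, that of the primitive endoderm marker Sparc has the same limit. Sparc passed the filter only with the help of the LIF libraries, where it had 23 reads, against 3 without LIF. The part of these marker genes' cell types in the increase of the feedback genes was not tested.

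**Figure D2:**
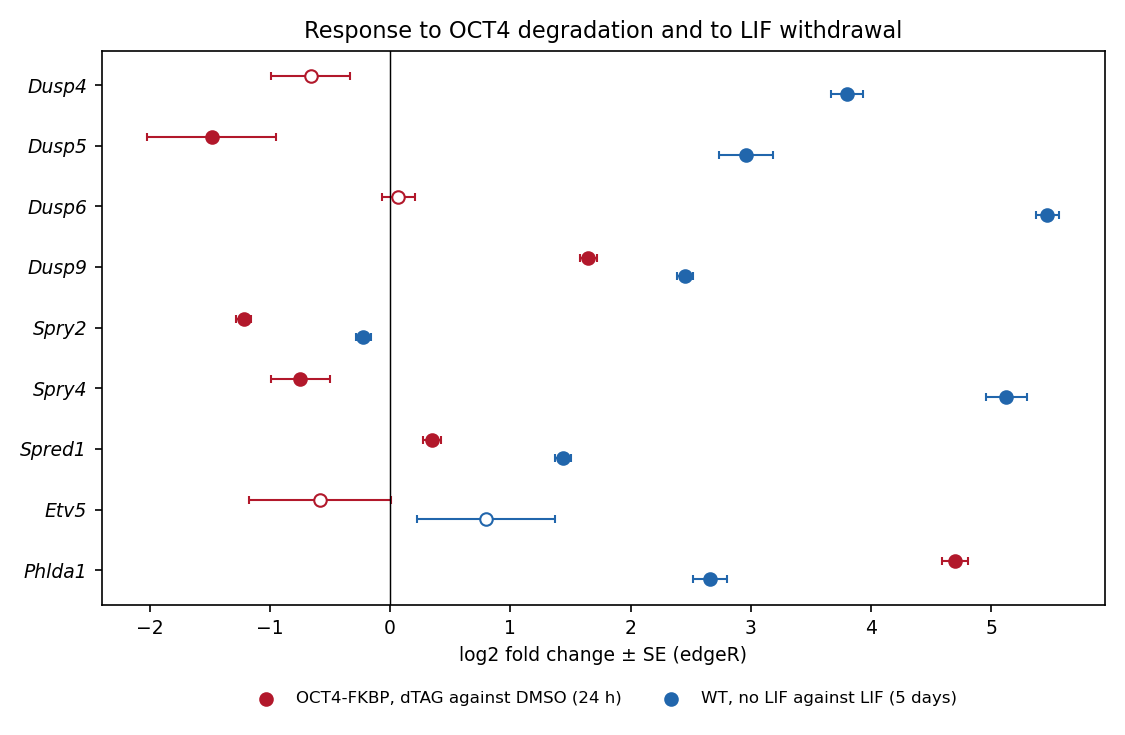
Log2 fold change (horizontal axis) of each tested gene with dTAG against DMSO in OCT4-FKBP cells (red) and without LIF against with LIF in WT cells (blue); bars are SE from edgeR, filled points passed an adjusted p of 0.05 and open points did not. Dusp6 sits at 0.07 with dTAG and 5.47 without LIF, Spry4 at -0.75 and 5.13, and Phlda1 at 4.70 and 2.66.

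The responses were then compared directly, as the log2 fold change with dTAG minus the log2 fold change without LIF. The dTAG and no LIF comparisons share no library, but differ in the line, the agent and the time (24 h and 5 days). Of the 9 tested genes, 7 had a lower response to dTAG and 1, Phlda1, a higher one, against 26.4% and 28.6% of all tested genes. The largest differences were in Spry4 (-5.87, SE 0.32, edgeR adjusted p = 2.8e-14) and Dusp6 (-5.40, SE 0.19, edgeR adjusted p = 1.5e-18). Dusp4 and Dusp5 followed with -4.46 (SE 0.37) and -4.45 (SE 0.58). These 4 genes rose without LIF, and none of them was called higher with dTAG.

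Smaller differences were found where both responses had the same sign. Spred1 and Dusp9 were called higher in each, and their responses to dTAG were lower by 1.09 (SE 0.10) and 0.80 (SE 0.10) on the log2 scale, with edgeR adjusted p of 5.8e-10 and 1.3e-07. Spry2 was called lower in each, by more with dTAG (difference -0.996, SE 0.09, edgeR adjusted p = 2.5e-10). Phlda1 alone had the larger increase with dTAG (difference 2.04, SE 0.22, edgeR adjusted p = 1.2e-08). The difference in Etv5 was -1.38 with an interval of -3.08 to 0.31 and was not called (edgeR adjusted p = 0.16). Leaving out WT LIF replicate 2 brought it past the threshold (-2.68, adjusted p = 0.027), as did testing each accession alone (-2.07, adjusted p = 0.040).

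The feedback genes did not all stand at the same level in the control groups of the tagged and WT lines. The OCT4-FKBP line in DMSO was set against WT with LIF, libraries that also serve as controls above, and the tag, its clone, the vehicle and the culture cannot be told apart here. Of the 9 genes, 4 were called higher in the tagged line and 2 lower, against 18.5% and 22.1% of all tested genes. Spry4 had 5.33 and 4.93 CPM in the tagged line, against 1.85 and 1.88 CPM in WT with LIF, 2.72-fold higher (edgeR adjusted p = 1.2e-04). Dusp6 had 11.1 and 12.1 CPM, against 8.21 and 6.47 CPM in WT with LIF, 1.57-fold higher (edgeR adjusted p = 0.0012). Phlda1 and Dusp9 were 1.59-fold and 1.37-fold higher in the tagged line (edgeR adjusted p = 0.0060 and 3.5e-05).

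Dusp4 was lower in the tagged line, with 2.39 and 2.20 CPM, against 4.59 and 4.59 CPM in WT with LIF (log2 fold change -1.01, SE 0.25, edgeR adjusted p = 0.0018). Spry2 was 1.14-fold lower (edgeR adjusted p = 0.011). That small difference was lost in DESeq2 (adjusted p = 0.062), with no filter (0.052), and without WT LIF replicate 1 (0.10), DMSO replicate 1 (0.20) or DMSO replicate 2 (0.098). The Phlda1 call was lost without WT LIF replicate 1 (adjusted p = 0.059). Dusp5, Spred1 and Etv5 were not called, with log2 fold changes of -0.67, 0.16 and 0.70. Spred1 was called when WT LIF replicate 2 (adjusted p = 0.0052) or DMSO replicate 2 (0.037) was left out and when each accession was tested alone (0.046). Dusp5 was called when WT LIF replicate 2 was left out (-0.96, adjusted p = 0.047). Trophoblast markers summed to 70.8 to 73.7 CPM in the tagged line, against 34.58 to 36.02 CPM in WT with LIF. Of the 10 tested, 2 were higher and 2 lower, against 18.5% and 22.1% of all tested genes. Cdx2, a trophoblast factor gene, carried most of that difference, with a mean of 32.9 CPM in the tagged line, against 0.79 CPM in WT with LIF. The part of these markers in the differences of the feedback genes was not tested.

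Ordered by level over the 4 groups, the genes fell into a few patterns. Dusp4 and Dusp5 were highest without LIF, then in WT with LIF, then in DMSO and lowest with dTAG. All neighbouring groups of Dusp4 were apart, and for Dusp5 the WT LIF and DMSO libraries overlapped. Dusp6, Dusp9 and Spred1 ran from no LIF through dTAG and DMSO to WT with LIF, and only the dTAG and DMSO libraries of Dusp6 overlapped. Spry4 ran from no LIF through DMSO and dTAG to WT with LIF, with no overlap. Phlda1 was highest with dTAG, then without LIF, in DMSO and in WT with LIF, with no overlap. Spry2 was highest in WT with LIF, then in DMSO and without LIF, which overlapped, and was lowest with dTAG. Neighbouring groups of Etv5 all overlapped. Groups of 2 libraries that lie apart are not thereby called. Dusp4 was apart but not called between dTAG and DMSO (edgeR adjusted p = 0.12). The same held for Spred1 between DMSO and WT with LIF (edgeR adjusted p = 0.085). How often groups lie apart over all tested genes was not counted, so these orders are a description.

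The span between the highest and the lowest group mean differed widely within the group. It was 45.0-fold for Dusp6, 44.7-fold for Dusp4, 41.2-fold for Phlda1, 35.7-fold for Dusp5 and 35.3-fold for Spry4. For Dusp9 it was 5.48-fold, for Spred1 2.70-fold and for Spry2 2.65-fold. The last 3 were read at 50 CPM or more in each library, and the first 5 were below 20 CPM in at least 2 groups.

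**Figure D3:**
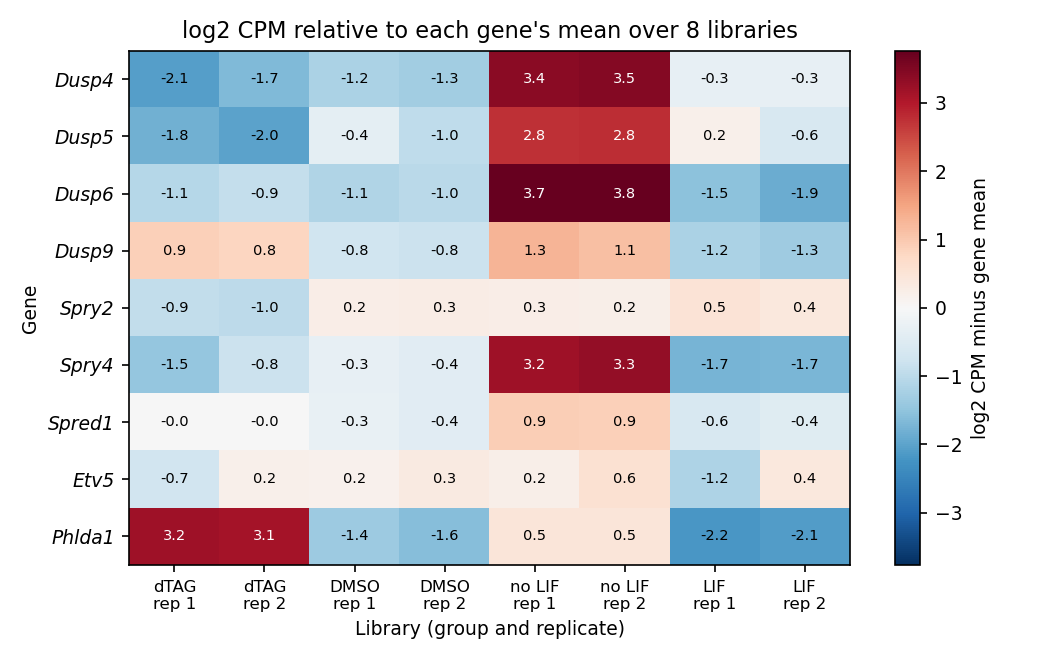
Each cell gives the log2 CPM of a gene (rows) in a library (columns, grouped as dTAG, DMSO, no LIF and LIF) minus that gene's mean over the 8 libraries, with red above and blue below the mean. Dusp4, Dusp5, Dusp6 and Spry4 share a red block in the no LIF columns, and Phlda1 has its own in the dTAG columns.

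Likeness between genes was measured as the Euclidean distance between their 4 group means of log2 CPM, each centred on the gene's own mean, over 7049 tested genes with at least 5 CPM on average. Etv5, whose libraries overlapped throughout, is left out here. Within the group, Dusp6 and Spry4 were close (distance 0.86), and 12 other genes were nearer to Dusp6 than Spry4 was. Dusp4 and Dusp5 were 0.90 apart, and 25 other genes were nearer to Dusp4. Dusp9 and Spred1 were 1.25 apart, and by nearness to Dusp9 Spred1 came only at rank 169 among the genes compared. Phlda1 had no close partner in the group: its nearest was Dusp9, at 2.67. The distances rest on 4 means from the same 8 libraries and describe these data only.

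Outside the group, the nearest genes to Dusp6 were Gnao1, a G protein subunit gene (distance 0.40), Efnb2, the gene of ephrin-B2 (0.53), and Timp3, the gene of a metalloprotease inhibitor (0.53). Gnao1 averaged 0.99 CPM with dTAG, 0.88 CPM in DMSO, 23.6 CPM without LIF and 0.59 CPM with LIF. Nearest to Dusp9 were Fzd3, a Wnt receptor gene (0.27), Slc2a1, a glucose transporter gene (0.28), and Rtl6 (0.33). Phlda1 was nearest to Wnt6, a Wnt ligand gene (0.56), to Phlda2, an imprinted relative of Phlda1 (0.73), and to Arhgap31 (0.80). Wnt6 averaged 40.3 CPM with dTAG, 2.38 CPM in DMSO, 9.71 CPM without LIF and 0.97 CPM with LIF. The nearest genes of the others were Adamts1 for Dusp4 (0.35), Kif26a for Dusp5 (0.36), Mfng for Spry2 (0.16), Grhl2 for Spry4 (0.41) and Map4k5 for Spred1 (0.12).

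Other genes were read from a list of 30, drawn up as ERK feedback and target genes, of which 23 could be tested. Whether ERK controls each gene on the list, or is restrained by it, was not tested. With dTAG, 4 were higher and 8 lower, against 20.1% and 20.3% of all tested genes, with a median log2 fold change of -0.11 over the 23, or -0.24 when 3 genes with at most 3 reads in each group were left out. DESeq2 called 4 higher and 5 lower. The 4 that rose were Fos, Egr1, Spred3 and Dusp10, of which all but Fos were picked out after their values had been seen. Fos, an immediate early factor, had 17.2 and 21.5 CPM with dTAG, against 2.39 and 2.46 CPM in DMSO, 7.91-fold higher (edgeR adjusted p = 1.5e-11). The DMSO level of Fos was itself 5.95-fold lower than in WT with LIF, where it averaged 14.8 CPM (edgeR adjusted p = 1.6e-09), and that of Egr1 was 10.6-fold lower (edgeR adjusted p = 9.5e-09). Epha2, an ephrin receptor gene used as an ERK target, had 33.7 and 31.1 CPM with dTAG, against 138 and 143 CPM in DMSO, 4.34-fold lower (edgeR adjusted p = 6.3e-18). Epha4, of the same family, was 2.28-fold lower (edgeR adjusted p = 2.3e-15). Il17rd, which encodes the FGF antagonist Sef, had 87.9 and 81.4 CPM with dTAG, against 122 and 122 CPM in DMSO (log2 fold change -0.53, SE 0.07, edgeR adjusted p = 2.2e-07).

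Without LIF, 16 of these 23 genes were higher and 3 lower, against 34.0% and 34.4% of all tested genes, with a median log2 fold change of 0.65. Dusp2, Dusp8, Ets1 and Fosl1 passed the read filter only through the no LIF libraries, where they are high, so their 4 higher calls were fixed by the filter; of the other 19 genes, 12 were higher and 3 lower. Il17rd rose to 392 and 408 CPM without LIF, against 107 and 106 CPM with LIF, 3.75-fold (edgeR adjusted p = 5.7e-20). Ccnd1, the gene of cyclin D1, had 490 and 483 CPM without LIF, against 184 and 184 CPM with LIF, 2.64-fold higher (edgeR adjusted p = 3.5e-18). Epha4 went the other way, with 16.0 and 18.4 CPM without LIF, against 391 and 399 CPM with LIF, 23.3-fold lower (edgeR adjusted p = 1.6e-25). Spry1, Spry3 and Myc, also on the list, had 0 reads over the 8 libraries; Spry1 and Myc have 4 accessions each.

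Genes of the pathway's own components were called in both directions. Of 24 listed RAS, RAF, MEK and ERK components, 17 could be tested, and with dTAG 4 were higher and 2 lower, none by 2-fold, against 20.1% and 20.3% of all tested genes, with a median log2 fold change of 0.12. Nf1, the gene of the RAS inhibitor neurofibromin, had 128 and 120 CPM with dTAG, against 84.1 and 82.1 CPM in DMSO, 1.49-fold higher (edgeR adjusted p = 2.1e-07). Rasa1, another RAS inhibitor gene, was 1.38-fold higher (edgeR adjusted p = 7.0e-07), and the RAS gene Nras was lower (log2 fold change -0.49, edgeR adjusted p = 1.3e-07). Without LIF, 8 of the 17 were higher and 3 lower, against 34.0% and 34.4%, with a median of 0.12. Braf, a RAF kinase gene, had 306 and 334 CPM without LIF, against 155 and 156 CPM with LIF, 2.05-fold higher (edgeR adjusted p = 2.1e-14), and Gab1, an adaptor gene with 2 accessions, was 7.73-fold higher (edgeR adjusted p = 1.9e-09).

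Ligand and receptor genes of the pathway went in both directions. Of 16 listed, 11 could be tested; with dTAG 2 were higher and 3 lower, against 20.1% and 20.3% of all tested genes, with a median log2 fold change of -0.88 over the 11, or -1.39 when 3 genes with 0 reads in both groups were left out. Without LIF 5 were higher and 5 lower, against 34.0% and 34.4% of all tested genes, with a median of 0.28. Fgf1, Fgf5, Fgf8 and Klb passed the read filter only with the help of the no LIF libraries, so the 3 higher calls among them, in Fgf1, Fgf5 and Fgf8, are a description; of the other 7 genes, 2 were higher and 5 lower. Fgf4, the autocrine ligand of ES cells, had 76.7 and 82.7 CPM with dTAG, against 379 and 403 CPM in DMSO, and 158 and 155 CPM without LIF, against 773 and 801 CPM with LIF. It was 4.91-fold lower with dTAG (edgeR adjusted p = 1.9e-20) and 5.01-fold lower without LIF (edgeR adjusted p = 3.9e-22). The difference between these responses was 0.03 (SE 0.08, edgeR adjusted p = 0.79). Fgf4 was thus called lower in both comparisons, while Dusp6 was called higher in one and in the other was not called.

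Fgf10, which encodes a ligand of the FGFR2b receptor form, was 6.42-fold lower with dTAG and 13.0-fold lower without LIF (edgeR adjusted p = 6.4e-16 and 1.6e-18). Fgf5, a ligand gene that marks the formative state, had 124 reads without LIF, against 1 with LIF, and 0 reads in both groups of the tagged line. Fgfr2 had 29 reads with dTAG, against 5 in DMSO, and 150 without LIF, against 2 with LIF (edgeR adjusted p = 6.6e-04 and 6.8e-12). Fgfrl1, the gene of a receptor without a kinase domain, was 5.87-fold higher with dTAG (edgeR adjusted p = 4.7e-11) and 2.35-fold lower without LIF (edgeR adjusted p = 0.0049). Fgf15, a ligand gene, was 19.4-fold higher without LIF, with 604 reads against 32 (edgeR adjusted p = 2.1e-15). Fgfr1, the main FGF receptor gene of ES cells, has 3 accessions and had 0 reads, so its level was not measured. Fgf5 and Fgfrl1 have 2 accessions each and Fgfr2 has 3. Their values cover only reads that tell accessions apart, and the 0 of Fgf5 does not show that the transcript is absent.

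**Figure D4:**
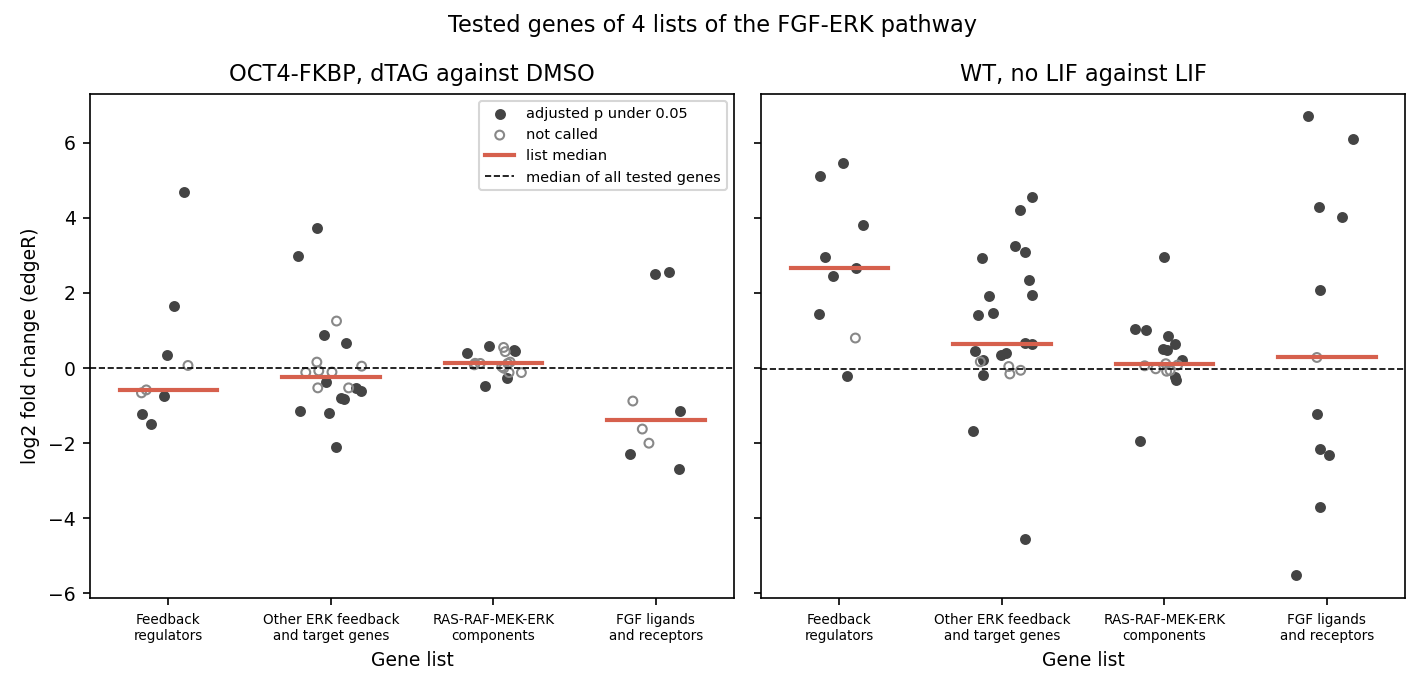
Log2 fold change (vertical axis) of the tested genes of 4 lists with dTAG against DMSO (left) and without LIF against with LIF (right); filled points passed an adjusted p of 0.05, red bars are list medians and the dashed line is the median of all tested genes. Groups with 0 reads are set to a floor of 3 reads, and genes at or under the floor in both groups are left out; the feedback regulators have a median of -0.58 with dTAG and 2.66 without LIF.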

How the data were processed

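The files the authors deposited hold whole-number read counts for each RefSeq transcript, 1 table for each of the 8 libraries. HISAT2, HTSeq and the mm9 genome build were used, per the submitters' processing notes, which give no versions. The library kit marks strand, per the labels' protocols, but no source used here states the strand setting of the counting. Summary lines entered neither library sizes nor tests; reads without a feature were 10.4% to 14.9% of the uniquely aligned reads. Of 41565 accessions, 41325 were named through the RefSeq table (GRCm38), 126 through GENCODE M21, and 114 kept their accession. Counts were summed per symbol; the design had assumed gene counts.

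All 8 libraries and 4 groups entered 1 fit in edgeR 4.0.16 (R 4.3.3) with TMM, filterByExpr, glmQLFit and glmQLFTest, with 4 residual degrees of freedom and no replicate block. The p-values were adjusted by Benjamini and Hochberg's method over 10311 genes, and SE is the log2 fold change over the square root of F; intervals are 95%. The fit was checked on simulated data. Alternatives were DESeq2 1.42.0, other scalings and filters, 4-library fits, a replicate block, each library left out, and other handling of accessions.

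The feedback genes, the other lists and the tests were chosen with earlier results of these data known. Some marker genes were named after their values had been seen. Other named genes were all 10 feedback genes and the 3 of smallest adjusted p in each pathway list. Added to these were 4 FGF ligand and receptor genes and the nearest genes by distance. A result that this rule would name is not reported here. Replicates within groups differed by more than sampling noise (chi-square per degree of freedom 1.75 to 4.58); no label ties them to separate cultures, and the p-values rest on a spread between libraries that may be technical. Floors cover counting error only. Promoter sequences are RefSeq's, on GRCm38.p6; protein sequences were not used here.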

Additional observations from a re-analysis of the deposited data

How the results depend on the processing

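Each of the 4 counts of feedback genes called, and of all genes called, stayed within 1.5 times its value under every alternative run. With 1 library left out in turn, 4 to 6 feedback genes were called with dTAG, 8 to 9 without LIF, 8 to 9 in the difference of responses and 4 to 8 between the control groups; the group that loses a library then has 1, assumed to vary like the others. Of 590 single-gene values under an alternative, 568 kept direction and call, 12 lost their call, 7 gained one and 3 changed sign. The 3 were uncalled values. Over the libraries left out, Dusp6 with dTAG ranged from -0.037 (without dTAG replicate 2) to 0.16. Etv5 ranged from -0.026 (without WT LIF replicate 1) to 2.11 without LIF, and from -0.12 (without WT LIF replicate 1) to 2.01 between the control groups. No scaling or filter changed the direction of a feedback gene or moved the median of all genes by over 0.1 on the log2 scale. Deviations of same-numbered libraries correlated at 0.02 to 0.04, so no shared effect of replicate number was seen. Counting noise is part of these deviations, so the values do not settle whether the numbers pair the samples. With a replicate block, 6 feedback genes were called with dTAG, 8 without LIF, 8 in the difference and 6 between the control groups, and 4214, 7082, 5690 and 4205 of all genes, against 4175, 7056, 5671 and 4191 without it. Depth limits Etv5 (68 reads in all), Dusp5 with dTAG (9 reads) and Etv4.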
